A study of Mus musculus with 4 samples.

Results

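Genes that mark fibroblasts were examined in mouse embryonic stem cells grown on STO cells, a mouse embryonic fibroblast line used as a feeder layer. The set was defined as 34 gene symbols, and a member was any probe set that the platform annotation names for 1 of these symbols alone. Of the 34 genes, 33 had such a probe set among 22180 genes in all. Fbn1, which encodes the microfibril protein fibrillin-1, had none and is not analysed here.

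All cells lacked Prdm14, were kept in 2i and LIF medium (a pair of kinase inhibitors with leukemia inhibitory factor) on STO cells, and gave total RNA for 1 array per group, all on strip 2. Another strip that the series' design names is not analysed here. One group carried an empty vector and another the mouse protein PRDM14. The third expressed PRDM14 of sea urchin, and the fourth co-expressed it with CBFA2T of sea urchin, from a family of co-repressors that bind PRDM14 (the CBFA2T array). Each group thus had 1 array, which limits the precision: there is no replicate error and no test was made. Values are log2 units made with RMA, and the array medians over all probe sets lay between 4.54 and 4.55. The probe set of Prdm14 itself was at 5.71 with the empty vector, 5.57 with mouse PRDM14, 5.77 with sea urchin PRDM14 and 5.53 on the CBFA2T array, so it did not check the labels, and each group name below means the array labelled with it. No array of STO cells alone or of stem cells without feeder cells was analysed here. In such bulk RNA, fewer fibroblasts and less RNA per fibroblast cannot be told apart, and the share of a signal that came from stem cells was not tested.

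Fibroblasts build the connective tissue matrix. They secrete fibrillar collagens, which lysyl oxidases cross-link and small leucine-rich proteoglycans such as decorin organise, and they lay down fibronectin and collagen VI around the cell. Activated fibroblasts also make contractile proteins of smooth muscle, and mesenchymal transcription factors such as Twist1, Prrx1 and Snai2 mark their lineage. Several of these genes are not restricted to fibroblasts: vimentin and fibronectin, for example, are also made by other embryonic cells.

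The marker set divided into bright and dim genes much alike on the 4 arrays. By their mean over the arrays, 17 of the 33 genes reached the 75th percentile over named probe sets (5.65), 5 lay between the median (4.84) and that value, and 11 lay below the median. As a second yardstick, the 95th percentile of 1108 olfactory receptor probe sets, genes that are silent in most tissues, was between 5.18 and 5.27 on the 4 arrays. With the brightest probe set of each gene, 19 members were above it on all 4 arrays and 13 on none. The dimmer second probe sets of Bgn, Col1a2, Col5a1 and Col6a1 were under it on all 4 arrays, and that of Vim was above it. Loxl1, a lysyl oxidase gene, was above it on 3 arrays. Probe sets differ in their affinity, so these levels are a guide to detection and not a ranking of the genes.

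The label was only partly borne out by the defining markers. Of 8 genes taken as defining, 5 were above the olfactory receptor level on all 4 arrays: Col1a1, Col1a2 and Col3a1 (fibrillar collagens), Thy1 (a surface glycoprotein) and Pdgfrb (the receptor for platelet-derived growth factor B). The other 3, Dcn (decorin), Lum (lumican) and Postn (periostin), were on none. Lum lay between 2.76 and 3.12, Dcn between 3.57 and 3.64 and Postn between 4.06 and 4.24. Lox, Thbs1, Timp3, Cav1, S100a4, Fap, Twist2, Snai2, Tagln and Mmp2 were also at or under that level throughout. The plot of values by gene shows the split.

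**Figure D1:**
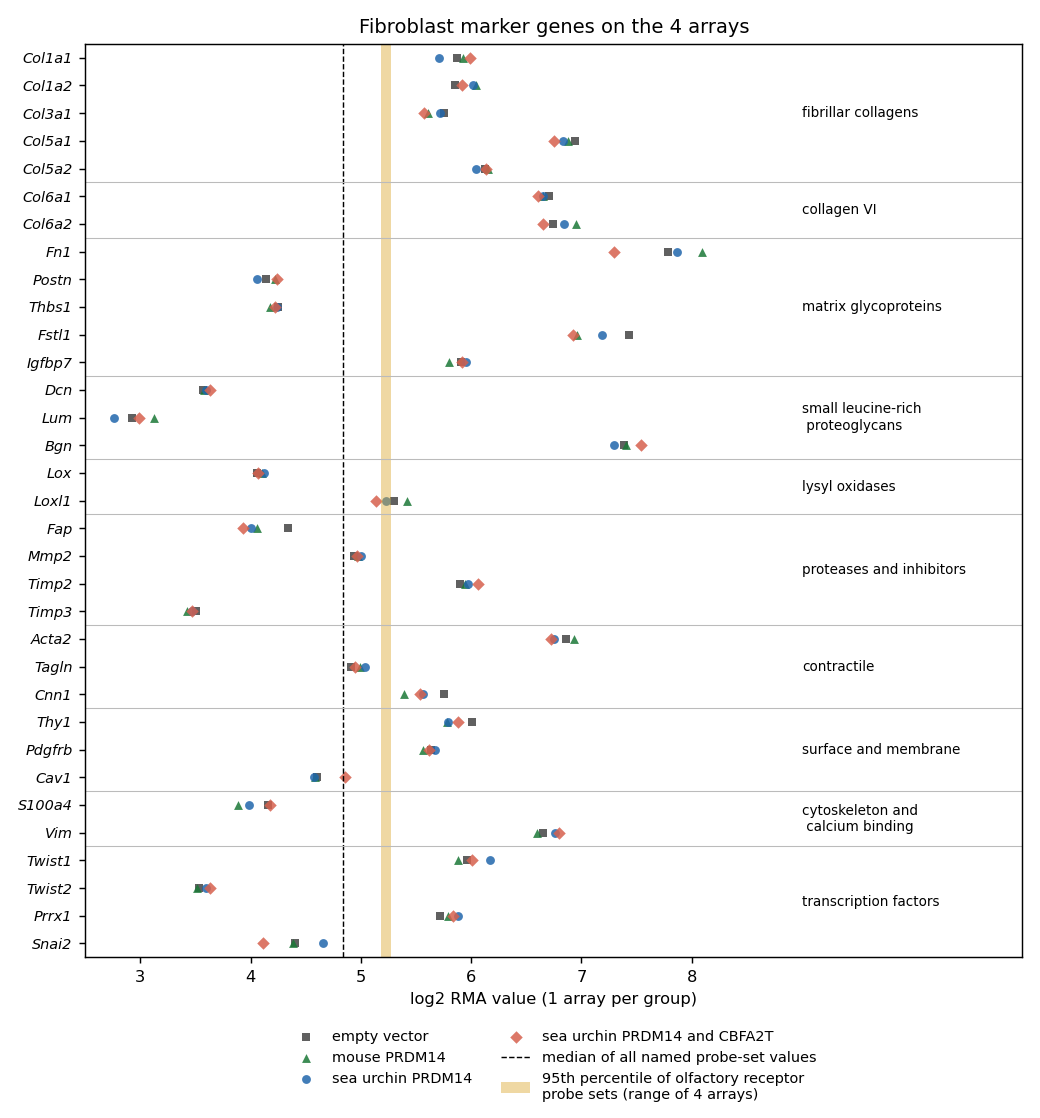
Log2 RMA value of each of the 33 marker genes on the 4 arrays, 1 symbol per array, grouped by role. The dashed line is the median over named probe sets (4.84) and the band is the 95th percentile of olfactory receptor probe sets (5.18 to 5.27); for nearly every gene the 4 symbols lie close together, with the widest gap in Fn1 (7.30 to 8.09).

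The fibrillar collagen genes were all above the olfactory receptor level in their brightest probe set and differed little between arrays. A second, dimmer probe set of Col1a2 (3.66 to 3.83) and of Col5a1 (4.97 to 5.04) was under that level on all 4 arrays. Col1a1, which encodes the alpha-1 chain of type I collagen, was at 5.87 with the empty vector, 5.93 with mouse PRDM14, 5.71 with sea urchin PRDM14 and 5.99 on the CBFA2T array. Its partner in the same protein, Col1a2, was at 5.85, 6.05, 6.02 and 5.92 in that order of arrays. The chains of 1 trimer thus had different orders: Col1a1 was lowest with sea urchin PRDM14, while Col1a2 was lowest with the empty vector. Col3a1, the type III collagen of soft tissue, was at 5.75, 5.61, 5.72 and 5.58. Col5a1 and Col5a2, which encode type V collagen of the fibril core, spanned 6.75 to 6.94 and 6.04 to 6.16. The largest range over the 4 arrays in this group was 0.28, in Col1a1.

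Collagen VI forms beaded filaments at the cell surface. Col6a2 was at 6.75 with the empty vector, 6.96 with mouse PRDM14, 6.84 with sea urchin PRDM14 and 6.65 on the CBFA2T array, a range of 0.30. Col6a1, its partner chain, was at 6.71, 6.65, 6.65 and 6.61, a range of 0.09. Both were lowest with CBFA2T added.

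Of the matrix glycoproteins, Fn1 and Fstl1 differed most between arrays, and they did not run in parallel. Fn1, which encodes fibronectin, was at 7.79 with the empty vector, 8.09 with mouse PRDM14, 7.86 with sea urchin PRDM14 and 7.30 on the CBFA2T array. Only the array with CBFA2T stood low. Its difference from the mouse PRDM14 array was -0.80, or 1.74-fold lower, and from the sea urchin PRDM14 array -0.57. Fstl1, a secreted follistatin-like glycoprotein, was at 7.43 with the empty vector, 6.96 with mouse PRDM14, 7.18 with sea urchin PRDM14 and 6.92 on the CBFA2T array. Here the empty vector array stood high, and the mouse PRDM14 array, the highest for Fn1, was close to the lowest. Igfbp7, which binds insulin-like growth factors, stayed between 5.80 and 5.96, and Thbs1 (thrombospondin-1) between 4.17 and 4.25.

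Among the small leucine-rich proteoglycans only Bgn (biglycan) was bright. It was at 7.38 with the empty vector, 7.41 with mouse PRDM14, 7.30 with sea urchin PRDM14 and 7.54 on the CBFA2T array. Lum and Dcn were among the dimmest members, and the range of 0.36 in Lum lay near the median of the olfactory receptor probe sets (3.02 to 3.08). Of the lysyl oxidases, Lox spanned 4.06 to 4.12, while Loxl1 was at 5.30, 5.42, 5.23 and 5.13 from the empty vector to the CBFA2T array.

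Of the matrix proteases and their inhibitors, Fap differed most between arrays. Mmp2, a gelatinase, had the narrowest range of all members, 0.06, around a mean of 4.97. Timp2, an inhibitor of that enzyme, lay between 5.90 and 6.07, and Timp3 between 3.43 and 3.50. Fap, a serine protease of activated fibroblasts, was at 4.34 with the empty vector, 4.06 with mouse PRDM14, 4.002 with sea urchin PRDM14 and 3.94 on the CBFA2T array. It was thus highest with the empty vector, but below the median of named probe-set values on every array.

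The contractile genes are usually switched on together by serum response factor in activated fibroblasts and smooth muscle. Acta2, which encodes smooth muscle actin, was at 6.86 with the empty vector, 6.93 with mouse PRDM14, 6.76 with sea urchin PRDM14 and 6.72 on the CBFA2T array. Cnn1, which encodes calponin, was at 5.75, 5.39, 5.57 and 5.53. The array with mouse PRDM14 was therefore the highest for Acta2 and the lowest for Cnn1. Tagln (transgelin) was dim, at 4.91, 4.99, 5.04 and 4.95, with a different order again.

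The 250 bases upstream of the start are given for both contractile genes in the RefSeq promoter table (GRCm38.p6) and for Col3a1. They run 5′ to 3′ on the gene's strand. Acta2 lies at chr19:34255374-34255623 on the minus strand, Cnn1 at chr9:22099003-22099252 on the plus strand and Col3a1 at chr1:45311288-45311537 on the plus strand. Capitals mark the E-box CANNTG, the general form of the sites that the Twist1 protein can bind, and TATAAA, each searched on both strands.
Acta2: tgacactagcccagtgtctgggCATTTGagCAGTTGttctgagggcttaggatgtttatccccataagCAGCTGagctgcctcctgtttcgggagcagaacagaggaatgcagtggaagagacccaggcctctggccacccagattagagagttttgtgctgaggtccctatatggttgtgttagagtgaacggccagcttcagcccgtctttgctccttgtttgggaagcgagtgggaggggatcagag
Cnn1: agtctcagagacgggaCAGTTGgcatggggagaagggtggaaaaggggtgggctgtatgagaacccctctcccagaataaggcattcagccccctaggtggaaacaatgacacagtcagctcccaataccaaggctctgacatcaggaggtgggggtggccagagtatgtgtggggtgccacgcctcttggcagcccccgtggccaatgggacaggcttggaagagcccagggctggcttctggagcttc
Col3a1: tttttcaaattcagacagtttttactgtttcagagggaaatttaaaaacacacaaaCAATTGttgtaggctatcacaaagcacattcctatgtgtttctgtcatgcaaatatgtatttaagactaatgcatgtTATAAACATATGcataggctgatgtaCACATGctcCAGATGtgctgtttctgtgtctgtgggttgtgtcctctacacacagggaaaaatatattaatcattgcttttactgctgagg
Acta2 held 3 E-box matches, Cnn1 1 and Col3a1 4, and Col3a1 also held 1 TATAAA, which overlapped 0 of its E-boxes. Over the 20 members found in the promoter table, 9 of 23 promoters (39.1%) held an E-box, beside 66.2% of all 32851 promoters. TATAAA was in 6 of the 23 (26.1%), beside 12.4% of all. The CArG box of serum response factor, searched on both strands as CC, 6 bases of A or T and GG, was in 0 of the 23 and in 1.47% of all. This strict pattern leaves out stretches with a G or C among the 6 inner bases, such as ccctatatgg and ccttgtttgg in the Acta2 sequence. The 0 thus does not show that such sites are absent. A match is a description of these letters and not evidence of binding.

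Surface and membrane genes also differed in their order. Thy1 was at 6.004 with the empty vector, 5.78 with mouse PRDM14, 5.79 with sea urchin PRDM14 and 5.88 on the CBFA2T array. Pdgfrb lay between 5.57 and 5.68, the narrowest of the group. Cav1, which encodes the coat protein of caveolae, was at 4.60, 4.58, 4.58 and 4.86, and only its value with CBFA2T passed the median of named values. Vim, the intermediate filament vimentin, was at 6.66, 6.59, 6.76 and 6.79. S100a4, a calcium-binding protein named for fibroblasts, was dim, between 3.88 and 4.18.

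The 4 transcription factor genes were all higher with sea urchin PRDM14 than with the empty vector, a direction that 49.6% of all genes had. Snai2, a zinc finger repressor of epithelial genes, was at 4.40 with the empty vector, 4.38 with mouse PRDM14, 4.66 with sea urchin PRDM14 and 4.12 on the CBFA2T array. The array with sea urchin PRDM14 was thus the highest and the array with CBFA2T the lowest, all below the median of named values. Twist1, a basic helix-loop-helix factor, was at 5.96, 5.88, 6.17 and 6.01, and Prrx1, a homeobox factor of limb mesenchyme, at 5.72, 5.79, 5.88 and 5.83. Twist2, a close relative of Twist1, lay between 3.52 and 3.64, and neither it nor Snai2 was above the olfactory receptor level on any array. Their differences from the empty vector array with sea urchin PRDM14 were 0.26 for Snai2, 0.21 for Twist1, 0.16 for Prrx1 and 0.06 for Twist2. None of these differences reached 1.5-fold.

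Whether the members moved as 1 block was examined by their order over the arrays. No array stood out over the 33 genes, which include 13 that were above the olfactory receptor level on no array. The empty vector array had the highest value for 9 of the 33 genes, mouse PRDM14 for 7, sea urchin PRDM14 for 8 and CBFA2T added for 9. The lowest value fell on these arrays for 7, 10, 6 and 10 genes. Over all genes the highest value fell on each array for 23.9% to 25.8% of genes and the lowest for 24.3% to 26.2%. The 33 genes used 18 of the 24 possible orders of the arrays, with at most 3 genes in any 1 order. Each of these 18 orders held 3.68% to 5.01% of all genes. All genes were thus spread over the orders too, and this count says little about the members. The map of deviations shows rows with opposite patterns inside most role groups.

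**Figure D2:**
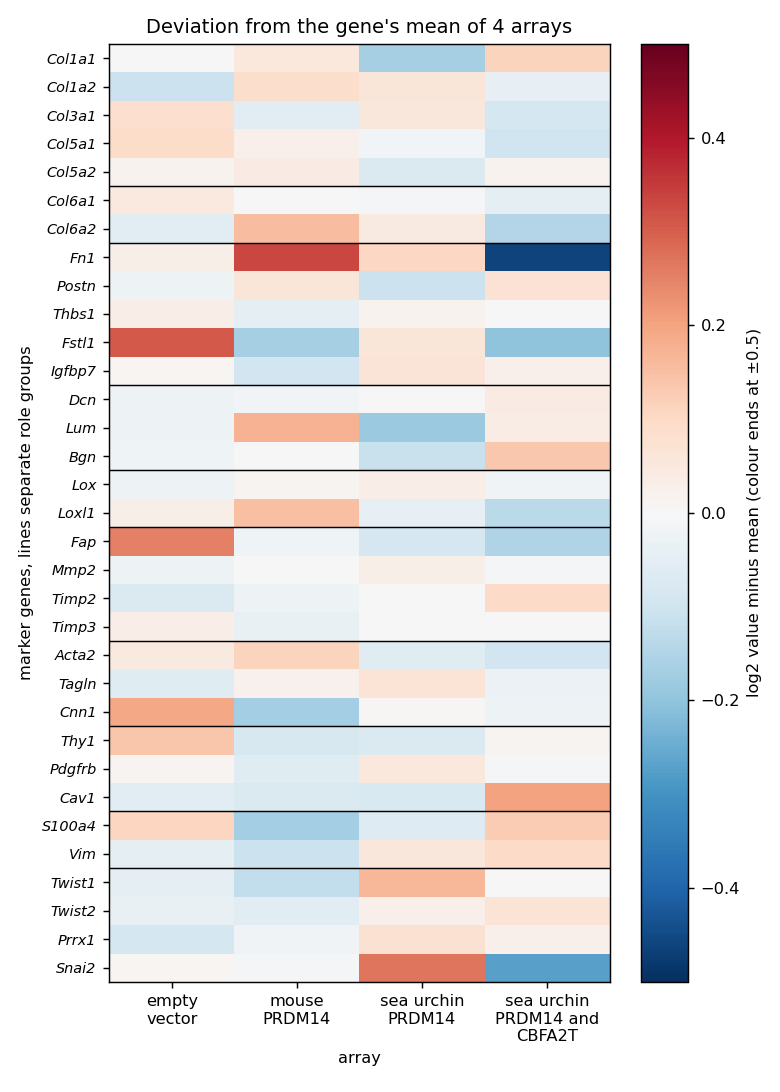
Log2 value of each marker gene (rows, by role) on each array (columns) minus the gene's mean of the 4 arrays; red is higher and blue lower, with colour ends at 0.5. No column is of 1 colour: the strongest cells are Fn1 with CBFA2T added (low) and with mouse PRDM14 (high), and Fstl1 with the empty vector (high).

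The spread of the members was much like that of all genes. The median range over the 4 arrays was 0.20 for the members, or 1.15-fold, and 0.19 for all genes. A range under 0.3 was seen in 26 of 33 members (78.8%) and in 82.3% of all genes. Fn1 (0.80), Snai2 (0.54) and Fstl1 (0.51) had ranges over 0.5, which is 9.09% of the members beside 2.66% of all genes.

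In all, 3 pairs of comparisons share no array, so their directions can be set side by side. The difference of mouse PRDM14 from empty vector and that of CBFA2T added from sea urchin PRDM14 had the same sign in 18 of 33 members (54.5%, 51.4% of all genes). For sea urchin PRDM14 from empty vector and CBFA2T added from mouse PRDM14 it was 17 of 33 (51.5%, 53.6% of all genes). For CBFA2T added from empty vector and sea urchin PRDM14 from mouse PRDM14 it was 18 of 33 (54.5%, 52.0% of all genes).

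With mouse PRDM14, 0 of the 33 genes were 2-fold apart from the empty vector array, where 0.0451% of all genes were. The median difference was -0.02, with quartiles of -0.07 and 0.07, beside a median of -0.003 (-0.09 and 0.08) over all genes. Above 0 were 16 members (49.2% of all genes), led by Fn1 (0.31), Col6a2 (0.21) and Lum (0.20). The lowest were Fstl1 (-0.47), Cnn1 (-0.36) and S100a4 (-0.27). At 1.5-fold the count was also 0, where 0.316% of all genes passed.

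With sea urchin PRDM14, again 0 members were 2-fold apart from the empty vector array (0.018% of all genes). The median was -0.02, with quartiles of -0.11 and 0.07 and 15 of 33 genes above 0 (49.6% of all genes). Snai2, Twist1 and Col1a2 (0.17) were the highest, and Fap (-0.34), Fstl1 (-0.25) and Thy1 (-0.21) the lowest. Of the fibrillar collagens, Col1a2 alone was above 0. At 1.5-fold 0 members and 0.374% of all genes passed.

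With CBFA2T added, the array differed from the empty vector array by 2-fold in 0 members (0.122% of all genes). The median was 0.01, with 18 of 33 above 0 (50.1% of all genes) and quartiles of -0.14 and 0.07. Fstl1 (-0.51), Fn1 (-0.49) and Fap (-0.40) were the lowest, while Cav1 (0.25), Timp2 (0.16) and Bgn (0.16) were the highest. The dimmer probe set of Bgn had the opposite sign, at -0.20. Again 0 members reached 1.5-fold, beside 0.555% of all genes. These 3 comparisons share the empty vector array, so a high value there, as in Fstl1 and Fap, enters all of them.

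Adding CBFA2T to sea urchin PRDM14 gave 0 members past 2-fold (0.108% of all genes) and a median of -0.03. Above 0 were 13 of 33, beside 50.6% of all genes. Fn1 (-0.57), Snai2 (-0.54) and Fstl1 (-0.26) were the lowest, and Cav1 (0.28), Col1a1 (0.28) and Bgn (0.25) the highest. Matrix genes thus stood at both ends. Bgn has a second, dimmer probe set, whose difference was 0.04. Past 1.5-fold were 0 members and 0.352% of all genes.

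Against the mouse PRDM14 array, the sea urchin PRDM14 array had 0 members past 2-fold (0.0361% of all genes) and a median of 0.02. Of the 33 members 19 were above 0, beside 50.7% of all genes. Twist1 (0.29), Snai2 (0.27) and Fstl1 (0.23) were the highest there, and Lum (-0.36), Fn1 (-0.23) and Col1a1 (-0.22) the lowest. At 1.5-fold 0 members and 0.365% of all genes passed. The array with CBFA2T had 0 members past 2-fold from mouse PRDM14 (0.113% of all genes). It had a median of 0.01 and 17 of 33 above 0, beside 50.7% of all genes. At 1.5-fold it had 1 member, Fn1, where 0.5% of all genes passed. S100a4 (0.30), Cav1 (0.27) and Vim (0.20) were its highest, and Col6a2 (-0.30) and Loxl1 (-0.28) followed Fn1 as its lowest. The second probe set of Vim, also bright, had a difference of -0.02 there, so the value of 0.20 rests on 1 probe set.

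**Figure D3:**
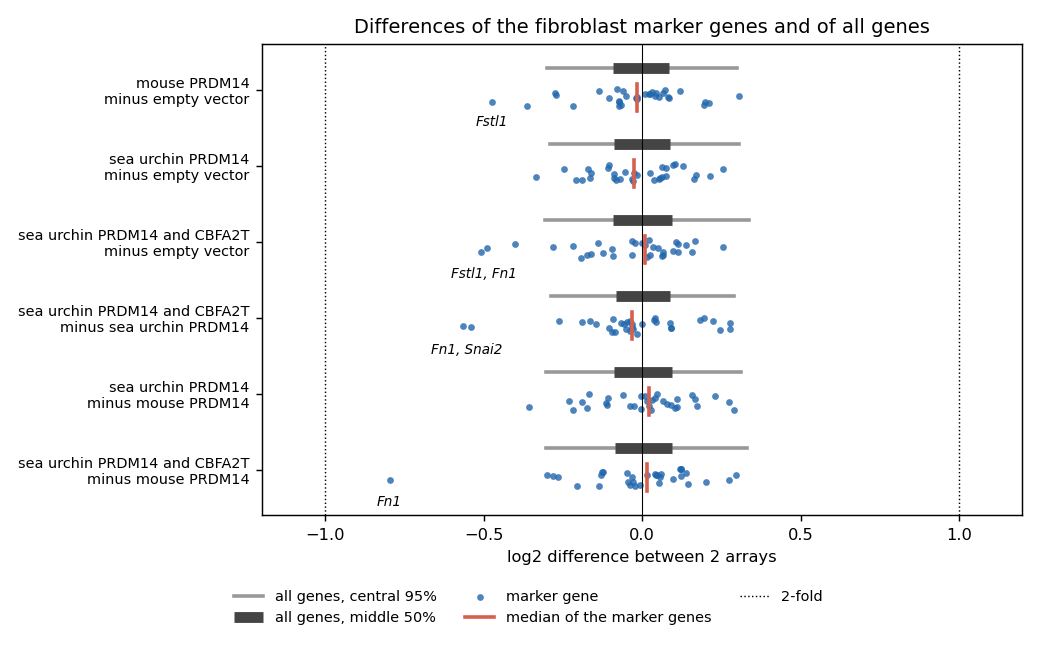
Log2 difference of each of the 33 marker genes (points) in the 6 comparisons, with their median (red line), the middle 50% and the central 95% of all 22180 genes (dark and grey bars) and the 2-fold limits (dotted). All medians lie between -0.03 and 0.02, no point reaches 2-fold, and the farthest point is Fn1 at -0.80.

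Split by brightness, 0 members of any class were 2-fold apart, where 0.018% to 0.122% of all genes were in the 6 comparisons. The 17 members at or above the 75th percentile had medians between -0.04 and 0.02 over the 6 comparisons, the 5 between the median and that value between -0.06 and 0.05, and the 11 below the median between -0.02 and 0.04. The classes did not always have the same sign. For CBFA2T added minus sea urchin PRDM14, 6 of the 17 bright members, 0 of the 5 in the middle and 7 of the 11 dim members were above 0. Over all genes 50.6% were above 0 there. A narrower set of 26 of the 33 left aside Vim, Fn1, Cav1, Timp2, Fstl1, Igfbp7 and S100a4, taken as not restricted to fibroblasts. The 26 are not all specific to fibroblasts either, since they include the contractile genes, which smooth muscle also makes. The medians of the 26 lay between -0.04 and 0.02. Above 0 were 9 to 14 of them, beside 49.2% to 50.7% of all genes.

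To ask how much marker signal each array carried, the linear levels (2 to the power of the log2 value) were summed over the 33 genes. The sum was 2035 units with the empty vector, 2030 with mouse PRDM14, 2006 with sea urchin PRDM14 and 1908 on the CBFA2T array. The array with CBFA2T thus carried 93.7% of the empty vector sum. Of its deficit of 127 units, Fn1 made 63.8, and Fn1 and Fstl1 together 115. Without Fn1, left out after its values had been seen, the sums were 1814, 1757, 1773 and 1751, all at 96.5% or more of the empty vector. Bright probe sets dominate such a sum, background included.

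**Figure D4:**
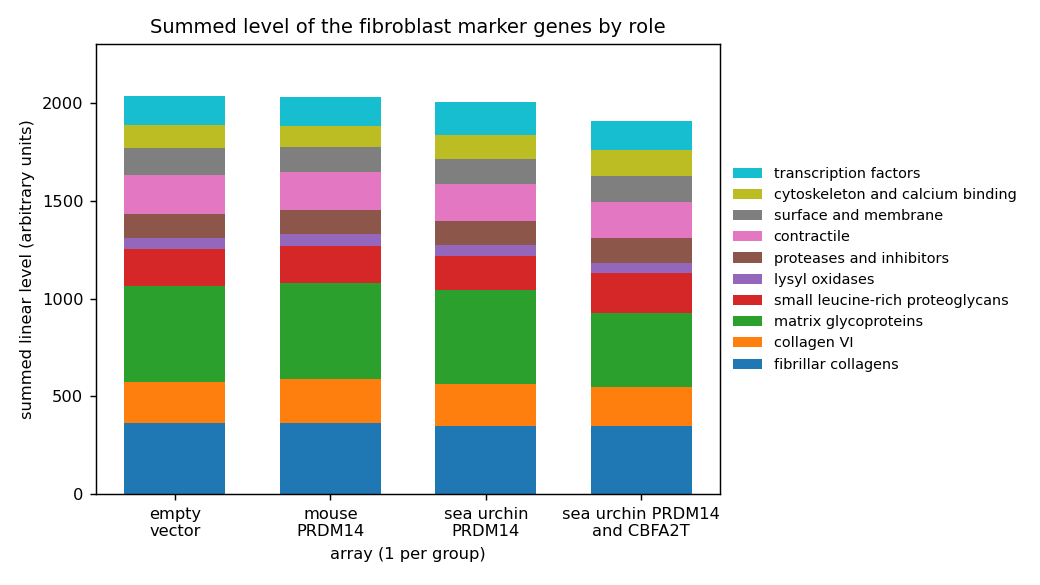
Linear levels summed over the 33 marker genes on each array, 1 array per bar, in arbitrary units and stacked by role. The bars reach 2035, 2030, 2006 and 1908 units, and the shorter bar with CBFA2T added has a smaller matrix glycoprotein segment (377 units beside 476 to 490).

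Other fibroblast genes were examined in lists that do not overlap the members. Of the collagen processing enzymes, 18 of 22 had a value. Over all genes 0.018% to 0.122% were 2-fold apart in the 6 comparisons, and of these enzymes 0. Their median was -0.07 with mouse PRDM14, 0.01 with sea urchin PRDM14 and 0.05 on the CBFA2T array, each from the empty vector. P4hb, a disulfide isomerase that is also a subunit of collagen prolyl hydroxylase, was at 7.23, 7.22, 7.80 and 7.58 from the empty vector to the CBFA2T array.

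A list of further fibroblast matrix genes, 33 of 34 with a value, had medians of -0.06, -0.03 and -0.04 in the same comparisons, and 0 were 2-fold apart. Eln, which encodes elastin, was at 5.44 with the empty vector, 4.90 with mouse PRDM14, 5.17 with sea urchin PRDM14 and 5.25 on the CBFA2T array. The further fibroblast cell genes (38 of 40) had medians of -0.03, -0.02 and -0.02, and targets of serum response factor, YAP and TGF-beta (26 of 27) had medians of -0.01, -0.04 and -0.05. None was 2-fold apart in either list. Over all genes the share was 0.018% to 0.122%, so these counts of 0 say little about the lists. Dlk1, a membrane protein of mesenchymal precursors, was at 5.87, 5.83, 6.24 and 5.84.

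The summed levels of marker lists of other cells were set beside those of the members. Between the lowest and the highest array the summed level differed by 1.07-fold for the fibroblast members, 1.07-fold for pluripotency genes, 1.06-fold for primitive endoderm and basement membrane genes, 1.10-fold for smooth muscle and pericyte genes and 1.04-fold for housekeeping genes. Macrophage and blood genes differed by 1.08-fold and endothelial genes by 1.05-fold. Of the 26 pluripotency genes 1, Tdgf1, was past 2-fold with CBFA2T added to sea urchin PRDM14, beside 0.108% of all genes. Tdgf1 encodes a co-receptor of Nodal. It was at 8.25 with the empty vector, 8.42 with mouse PRDM14, 8.74 with sea urchin PRDM14 and 7.58 on the CBFA2T array. Its difference between the arrays with and without CBFA2T was -1.16. Its lowest array was also that of Fn1, but 24.8% of all genes were lowest there, so this does not link the 2 genes. The pluripotency genes had 25 of 26 members at or above the median of named values on every array, beside 22 or 23 of 33 fibroblast members. Whether these lists contributed to the values of Fn1 or Fstl1 was not tested.

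For 5 members a second probe set gave a check within the array. In the difference of mouse PRDM14 from the empty vector, 3 of the 5 genes had the same sign in both probe sets, and over the 6 comparisons the count ranged from 2 to 4. Bgn was at 0.02 in its brighter probe set and -0.38 in its dimmer one for that difference. For Vim, both probe sets were bright, and their differences were -0.06 and -0.03. For CBFA2T added minus empty vector they were 0.14 and -0.05, so the signs differed there, while for sea urchin PRDM14 minus mouse PRDM14 they were 0.17 and 0.08.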

How the data were processed

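Total RNA of 4 samples of Prdm14-deficient mouse embryonic stem cells was labelled with biotin and hybridised to GeneAtlas arrays, per the labels' protocols. The deposited values are log2 probe-set summaries; the submitters' processing notes name RMA, with which the authors corrected background, equalised distributions and summarised probes. Neither its version, nor a genome build, nor the set of arrays normalized with these is given in the sources used here. Equalised distributions hide a shift shared by most genes, and background pulls a dim gene's difference toward 0.

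The table held 41345 probe sets: 23521 named for 1 gene, 1814 for several and 16010 for none. A gene took its probe set with the highest mean, which gave 22180 genes. One probe set shared by Col6a1 and other genes was left out. No filter on dim genes was applied, since a filter on the highest array keeps genes through the array where they are high. Differences are log2 value minus log2 value, called at 2-fold (1 on the log2 scale), with 1.5-fold as an alternative. The other alternatives were filters on dim genes, cyclic loess, centring, the mean of all probe sets and narrower member sets. The olfactory receptor level and leaving out Fn1 were added after the values had been seen. All members could be named; from each other list, up to 3 genes past 2-fold or the 1 with the largest difference could be.

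The members and all lists were chosen with earlier results of these data known. Scripts were tested on simulated data. Python 3.11.15, pandas 2.3.3, scipy 1.17.1, R 4.3.3 and limma 3.58.1 were used.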

Additional observations from a re-analysis of the deposited data

How the results depend on the processing

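No paired analysis was possible because each group had 1 array among those analysed here. For the same reason no replicate could be left out. At 2-fold, 0 members were called in all 6 comparisons under every filter, after cyclic loess and after centring each array on its median. The count was also 0 with probe sets averaged per gene and with narrower member sets. In the main setting 0.018% to 0.122% of all genes were called, so a count of 0 says little about the members. At 1.5-fold, 1 member was called between the array with CBFA2T and the mouse PRDM14 array, beside 0.5% of all genes. The medians of the members lay between -0.04 and 0.03 under all 48 combinations tried, and 13 of these had another sign than the value given above, in 5 of the 6 comparisons. The sign of the median is thus not settled in those 5. It stayed below 0 for CBFA2T added minus sea urchin PRDM14 (-0.04 to -0.03), where there is also no replicate error. The share of members above 0 moved by at most 12.1 percentage points, from 39.4% to 27.3% for CBFA2T added minus sea urchin PRDM14 once members with a mean below the median were left out. Over all genes, with none left out, that share was 50.6%. With probe sets averaged per gene, the summed levels were 1777 for the empty vector, 1766 for mouse PRDM14, 1755 for sea urchin PRDM14 and 1635 for CBFA2T added, lower because dim second probe sets enter the mean. Without Fn1 they were 1814, 1757, 1773 and 1751. The array with CBFA2T had the lowest sum each time. The depth of an array cannot be counted, and values near background limit what the 11 dim members can show.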
